A study of Mus musculus with 12 samples.

Results

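DTPA, given to lower zinc outside the cell, was set directly against knockdown of the zinc importer ZIP10, in mouse erythroid cells that received 1 treatment or the other. The cells were G1E-ER4, a line that lacks GATA1 and carries a form of it that estradiol switches on, so that estradiol starts erythroid differentiation. RNA was taken after 24 h with 100 nM β-estradiol. The siControl plus DTPA group received a control siRNA and 25 µM DTPA, a chelator that stays largely outside cells and binds zinc and other metals. The siZIP10 group received an siRNA against Slc39a10, the gene for ZIP10, and no DTPA. All groups were transfected by nucleofection on 2 occasions 24 h apart, the second at the start of differentiation, and grown with erythropoietin and Kit ligand. Of 12 libraries, 5 were compared: replicates 1 and 2 of siControl plus DTPA and replicates 1 to 3 of siZIP10. The values given for replicate 3 of siControl plus DTPA were those of siZIP10 replicate 1 at all genes, so it was left out. The other groups, siControl with neither treatment and siZIP10 plus DTPA with both, have 3 libraries each and are given beside the comparison as levels. Below, the DTPA libraries are those of siControl plus DTPA. All cells come from 1 line, no group had zinc or ZIP10 restored, and zinc and ZIP10 protein are not analysed here.

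ZIP proteins (Slc39a genes) carry zinc into the cytosol and ZnT proteins (Slc30a genes) carry it out or into vesicles. The transcription factor MTF1 binds metal response elements when zinc is plentiful and switches on the metallothionein genes Mt1 and Mt2, whose proteins bind zinc, and the exporter gene Slc30a1. MTF1 has also been described as a repressor of Slc39a10. In erythroid cells zinc is bound by GATA1 itself and by many other zinc finger factors, and in carbonic anhydrase and enzymes of heme synthesis.

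Levels are TPM, the number of transcripts of a gene among 1000000 of a library. Differences are siControl plus DTPA minus siZIP10 on the log2(TPM + 1) scale, which understates the change of low genes, so that a positive value means more RNA with DTPA. A gene is called where the adjusted p of limma (Benjamini-Hochberg over the 11379 genes whose mean reached 1 TPM) was under 0.05. By this test 2371 genes differed, 20.8% of those tested. DTPA libraries were higher for 957 (8.41%) and lower for 1414 (12.4%), and the median difference of all genes was −0.019. These shares are the background for the counts of list members. The surplus of lower calls depended on the scaling, with 1279 higher and 1302 lower under median-of-ratios scaling and 1204 and 1356 under quantile normalization. Most differences were small: 31 called genes were at least 2-fold higher and 31 at least 2-fold lower. Libraries correlated at 0.989 to 0.991 (Pearson, across genes) within the groups and at 0.985 to 0.986 between them. The depth recovered from the values ran from 19.62 to 24.68 M reads per library, with M for 1000000. With 2 DTPA libraries the counts depend on each of them: 1369 genes were called without replicate 1 and 1260 without replicate 2, where the lone library was taken to vary like the other groups. Calls over all genes thus fall in those fits too, so list counts without a DTPA replicate are not comparable with the shares of 8.41% and 12.4%. In bulk RNA, fewer cells of a kind and less RNA per cell cannot be told apart.

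**Figure D1:**
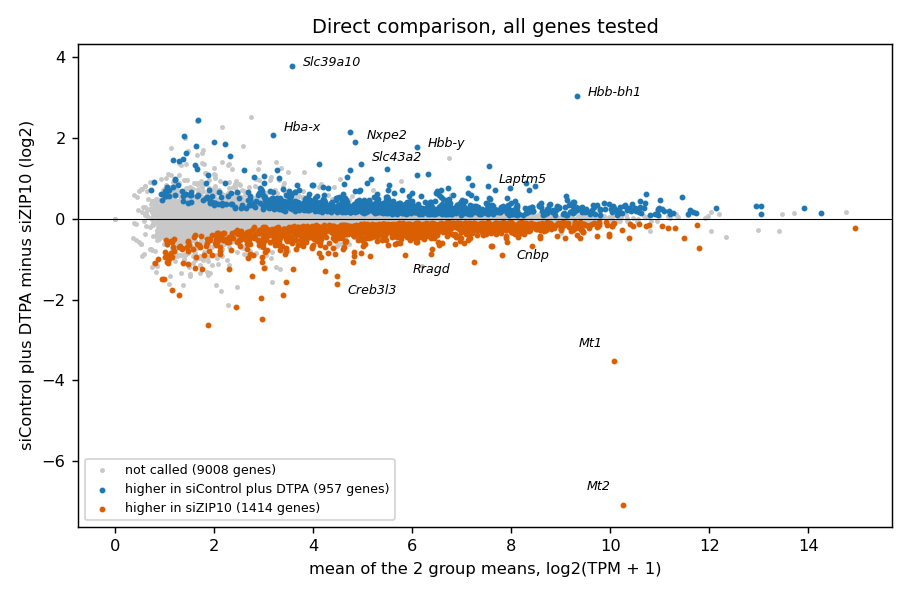
Difference between siControl plus DTPA and siZIP10 (log2, vertical axis) against mean level (log2(TPM + 1), horizontal axis) for 11379 genes; colours mark the 957 genes called higher and the 1414 called lower with DTPA. Most called genes lie near 0, while Mt1 and Mt2 lie far below and Slc39a10 and Hbb-bh1 far above the other genes at their level.

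Because the metallothionein genes and Slc30a1 are known MTF1 targets, the 250 bases before their RefSeq start (GRCm38.p6) are shown with those before Slc39a10, each 5′ to 3′ on the gene's strand, to let the letters be read beside the zinc-gene values. Capitals mark the metal response element core, searched as TGCACNC or TGCGCNC on both strands.

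Mt1, chr8:94178839-94179088, plus strand: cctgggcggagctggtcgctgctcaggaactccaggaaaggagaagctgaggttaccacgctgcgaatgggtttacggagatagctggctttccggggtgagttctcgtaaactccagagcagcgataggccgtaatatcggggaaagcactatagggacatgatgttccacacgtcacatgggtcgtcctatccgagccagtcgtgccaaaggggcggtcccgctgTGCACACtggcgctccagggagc

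Mt2, chr8:94172368-94172617, plus strand: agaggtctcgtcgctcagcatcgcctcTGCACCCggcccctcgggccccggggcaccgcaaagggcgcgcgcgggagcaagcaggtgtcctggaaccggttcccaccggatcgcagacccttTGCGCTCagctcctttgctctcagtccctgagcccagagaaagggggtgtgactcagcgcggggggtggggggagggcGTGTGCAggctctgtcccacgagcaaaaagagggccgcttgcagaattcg

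Slc30a1, chr1:191906531-191906780, plus strand: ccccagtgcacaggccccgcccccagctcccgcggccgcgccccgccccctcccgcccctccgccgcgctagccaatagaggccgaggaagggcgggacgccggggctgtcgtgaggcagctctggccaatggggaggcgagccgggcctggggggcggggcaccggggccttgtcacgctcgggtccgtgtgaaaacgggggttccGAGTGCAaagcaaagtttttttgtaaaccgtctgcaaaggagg

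Slc39a10, chr1:46853619-46853868, minus strand: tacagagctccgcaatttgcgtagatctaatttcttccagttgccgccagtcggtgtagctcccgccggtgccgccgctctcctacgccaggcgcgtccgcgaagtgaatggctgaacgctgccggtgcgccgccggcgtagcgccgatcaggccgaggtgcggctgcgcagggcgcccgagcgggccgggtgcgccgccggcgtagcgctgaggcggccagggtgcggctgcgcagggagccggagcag

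In windows of 300 bases (250 before and 50 from the start on), the core occurs 3 times for Mt1, 4 times for Mt2 and 2 times for Slc30a1, of which the matches past the start are not shown. Neither of the windows of Slc39a10, which has 2 RefSeq starts, holds these letters, which says nothing about binding elsewhere. These starts, at chr1:46853618 (shown) and chr1:46925776, both differ from the start of the gene in GENCODE, whose position is given below. The core is common: 25.7% of the 32851 windows of all genes hold it.

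Slc39a10, Mt1 and Mt2 had the 3 largest differences among the genes called. Slc39a10 (ENSMUSG00000025986.6, chr1:46807544-46892852, minus strand) is the gene that the siRNA targets. It stood at 22.0 and 20.3 TPM with DTPA and 0.539, 0.507 and 0.837 TPM with siZIP10, against 2.62 ± 0.271 (SD, n = 3) in siControl and 5.10 on average in siZIP10 plus DTPA (3.77, SE 0.12, adjusted p = 3.71e-08). siControl lay between the groups, so the gap held a rise with DTPA of 2.61 and a fall with the siRNA of 1.16 on the log2 scale, both called and both measured from the same siControl libraries. The low level in all 3 siZIP10 libraries checks the knockdown label. Mt2 (ENSMUSG00000031762.7, chr8:94172664-94173568, plus strand) stood at 19.2 and 15.0 TPM with DTPA and 2365, 2497 and 2377 TPM with siZIP10 (−7.07, SE 0.12, adjusted p = 1.27e-10). The levels of Mt1 (ENSMUSG00000031765.8, chr8:94179082-94180327, plus strand) were 170.1 and 176 TPM with DTPA and 1845, 2106 and 2039 TPM with siZIP10 (−3.52, SE 0.059, adjusted p = 1.27e-10). siZIP10 libraries were close to siControl for both (Mt2 2039 ± 72.4 TPM, Mt1 1707 ± 90.0 TPM): Mt1 was called higher than siControl by 0.23 and Mt2, at 0.24, was not called. With DTPA, Mt2 was thus 141-fold and Mt1 11.6-fold below siZIP10 in TPM.

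Slc30a1, the zinc exporter of the plasma membrane and the other MTF1 target, differed far less. It stood at 92.5 and 87.6 TPM with DTPA and 112, 112 and 120.1 TPM with siZIP10 (−0.34, SE 0.046, adjusted p = 0.000573), with siControl at 82.5 ± 2.94. Against siControl it was called higher with siZIP10 (0.47) and was not called with DTPA (0.12). siZIP10 plus DTPA stood highest, at 242 TPM. Mtf1 itself was not called (−0.048, adjusted p = 0.629). Among 9 ZIP genes tested, 2 were called higher and 2 lower (22.2% each, background 8.41% and 12.4%). The higher calls were Slc39a10, the siRNA target, and Slc39a9, so the higher share is in part set by the design. Slc39a6, the gene for ZIP6, the importer closest to ZIP10, stood at 8.47 and 8.38 TPM with DTPA and 13.5, 11.4 and 13.4 TPM with siZIP10 (−0.54, SE 0.077, adjusted p = 0.000785), and siControl (8.53 ± 0.492) was close to the DTPA level. Slc39a8, whose protein ZIP8 carries zinc, iron and manganese, was lower with DTPA, with 332 and 327 TPM with DTPA and 383, 368 and 390.0 TPM with siZIP10 (−0.20, adjusted p = 0.000571). Slc39a9 was called at 0.19, but not without DTPA replicate 1 (adjusted p = 0.26) or replicate 2 (adjusted p = 0.08). Of 6 ZnT genes tested, the other one called was Slc30a10, a family member known for exporting manganese, at 129.8 and 123 TPM with DTPA and 107, 103 and 112 TPM with siZIP10 (0.23, adjusted p = 0.00319).

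**Figure D2:**
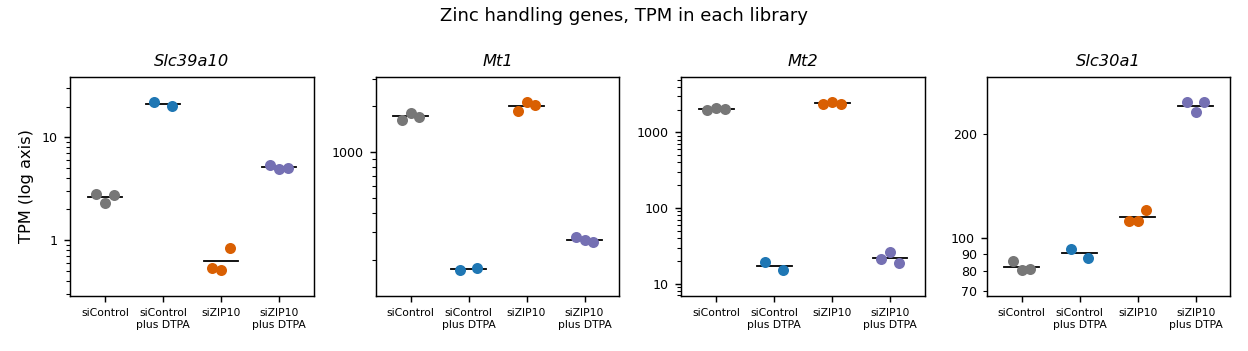
TPM (log axis) of Slc39a10, Mt1, Mt2 and Slc30a1 in each of 11 libraries of the 4 groups; points are libraries and bars group means. siControl plus DTPA and siZIP10 libraries do not overlap for any of the 4 genes (nor for 48% of all genes tested), and Mt1 and Mt2 of siZIP10 stand beside siControl.

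Of 17 genes listed as zinc-dependent enzymes, 2 were higher (11.8%, near the background of 8.41%) and 7 lower with DTPA (41.2%, background 12.4%). Car1 and Car13, cytosolic carbonic anhydrases that carry zinc at their active site, went opposite ways. Car1 stood at 96.8 and 84.8 TPM with DTPA and 42.3, 36.1 and 51.3 TPM with siZIP10 (1.06, SE 0.12, adjusted p = 0.00016), on either side of siControl (64.6 ± 3.98). Car13 stood at 14.2 and 14.5 TPM with DTPA and 27.9, 25.7 and 27.7 TPM with siZIP10 (−0.87, SE 0.069, adjusted p = 1.97e-05), again on either side of siControl (20.9 ± 1.70). Hint1, a nucleotide hydrolase on the list whose need for zinc is uncertain, was lower with DTPA (−0.31). It stood at 533 and 527 TPM with DTPA and 663, 657 and 652 TPM with siZIP10. Gda, a guanine deaminase, was called at −0.40 from 2.57 to 4.06 TPM, but not without DTPA replicate 1 (adjusted p = 0.14) or 2 (adjusted p = 0.133), nor without siZIP10 replicate 1 (adjusted p = 0.101) or 2 (adjusted p = 0.0648). Lower calls in the list were fewer when either DTPA replicate was left out, as were lower calls over all genes.

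Embryonic globin RNA marked the DTPA libraries. Hbb-bh1 (ENSMUSG00000052217.6, chr7:103841637-103843164, minus strand), a β-like globin of the embryonic yolk sac, stood at 1143 and 1134 TPM with DTPA and 132, 145 and 139 TPM with siZIP10 (3.03, SE 0.040, adjusted p = 2.62e-11). siZIP10 stood close to siControl (142 ± 2.88 TPM; −0.038, not called), while siZIP10 plus DTPA reached 5420.3 TPM. Hbb-y, the other main embryonic β-like gene, stood at 101 and 108 TPM with DTPA and 32.1, 30.7 and 27.3 TPM with siZIP10 (1.76, SE 0.15, adjusted p = 2.85e-05) with siControl at 23.0 ± 5.38. Hba-x, the embryonic α-like gene, stood at 13.6 and 13.7 TPM with DTPA and 2.33, 2.20 and 3.02 TPM with siZIP10 (2.07, SE 0.15, adjusted p = 1.46e-05). Here siControl (5.41 ± 0.327) lay between the groups, with siZIP10 called lower than siControl (−0.87) and DTPA higher (1.19). No DTPA library overlapped a siZIP10 library for any of the 3 genes, as for 48% of all genes tested. The globin list held 9 tested genes, of which these 3 were called higher (33.3%, background 8.41%) and none lower (background 12.4%). Hbb-bh0, outside that list and with few reads, was called at 6.32 and 4.07 TPM with DTPA and 0, 1.14 and 1.10 TPM with siZIP10 (1.88, SE 0.45, adjusted p = 0.0152), but not without DTPA replicate 1 (adjusted p = 0.117).

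Adult globins did not pass the test in the main fit. The globin list, embryonic genes included, had 5 higher calls with voom on recovered reads, against 3 in the main fit. Hbb-bs stood at 27829.8 and 30822 TPM with DTPA and 25528, 27856 and 25392 TPM with siZIP10 (0.16, adjusted p = 0.127). Hba-a1 stood at 11761 and 11906 TPM with DTPA and 11080.5, 10582 and 11038 TPM with siZIP10 (0.12, adjusted p = 0.203). For Hbb-bt the libraries of each group were spread over each other (2137 and 5661 TPM with DTPA and 6538, 3523 and 3436 TPM with siZIP10; −0.30, adjusted p = 0.75), and reads of near-identical globin copies may be divided unevenly between them. Summed over globin genes, the share of TPM was 4.6% and 5.2% with DTPA and 4.25% to 4.6% with siZIP10. The groups met at 4.6%.

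Among 16 genes that act for or against silencing of embryonic globin, 4 were higher and 2 lower (25.0% and 12.5%, background 8.41% and 12.4%). Bcl11a, a zinc finger repressor of embryonic and fetal globin genes, was low in all libraries and lower with DTPA, at 4.41 and 4.12 TPM with DTPA and 5.75, 6.02 and 6.16 TPM with siZIP10 (−0.41, SE 0.082, adjusted p = 0.00598). Its siControl level (5.76 ± 0.0152) fell in the range of siZIP10. The call was lost without DTPA replicate 2 (adjusted p = 0.0586). Klf1, a zinc finger activator of adult globin and of Bcl11a, went the other way at 691 and 693 TPM with DTPA and 574, 578 and 551 TPM with siZIP10 (0.29, SE 0.054, adjusted p = 0.00415). Dnmt1, the maintenance DNA methyltransferase, was higher by 0.20 (lost without DTPA replicate 1, adjusted p = 0.0712), and Hic2, a repressor of Bcl11a, by 0.17 (lost without DTPA replicate 1, adjusted p = 0.155, and without siZIP10 replicate 2, adjusted p = 0.0549). Zbtb7a, another repressor of fetal globin, was not called (−0.068, adjusted p = 0.486), nor was Myb (0.34, adjusted p = 0.106). The list had 1 higher and 2 lower calls without DTPA replicate 1, and 3 and 0 without replicate 2.

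**Figure D3:**
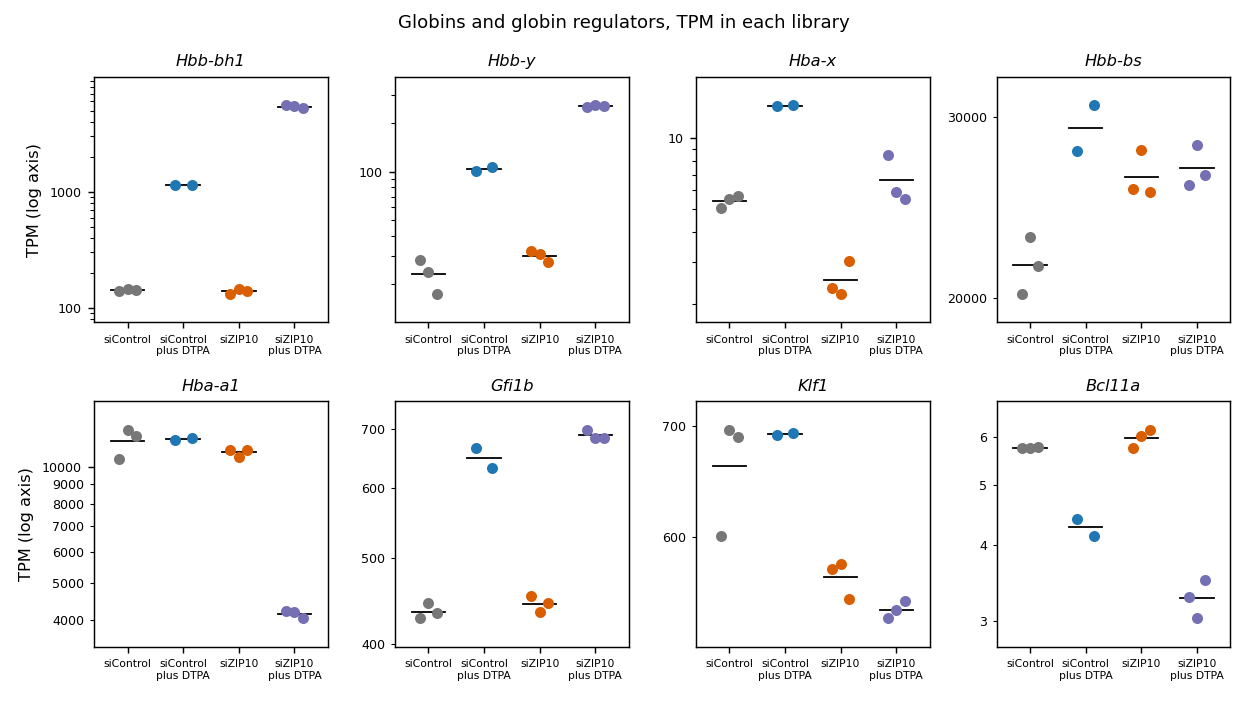
TPM (log axes of different span) of embryonic globins (Hbb-bh1, Hbb-y, Hba-x), adult globins (Hbb-bs, Hba-a1) and 3 regulators in each library, with bars for group means. The 2 DTPA libraries stand above siZIP10 for each embryonic globin, for Hba-a1 (not called), for Gfi1b and for Klf1 and below it for Bcl11a.

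Erythroid transcription factor genes were split, with 5 of 19 higher and 4 lower (26.3% and 21.1%, background 8.41% and 12.4%). Gfi1b, a zinc finger repressor needed for red cell and megakaryocyte development, stood at 666 and 632 TPM with DTPA and 453, 434 and 444 TPM with siZIP10 (0.55, SE 0.030, adjusted p = 2.04e-06), with siZIP10 at the siControl level (435 ± 8.80). Nfe2, the p45 subunit of the factor NF-E2, stood at 439 and 438 TPM with DTPA and 339, 332 and 332 TPM with siZIP10 (0.39, SE 0.023, adjusted p = 3.69e-06), with siControl between them (382 ± 5.82). Lower with DTPA were Klf3 (−0.32, adjusted p = 0.000323) and Ikzf1, the gene for Ikaros (−0.29, adjusted p = 0.000156). Gata1 was not called (1512 and 1404 TPM with DTPA and 1561, 1502 and 1593 TPM with siZIP10; −0.091, adjusted p = 0.169); its reads may come from the introduced form. Without DTPA replicate 1 the factor list had 3 higher and 3 lower calls, and without replicate 2 it had 5 and 2. Of 13 genes of earlier progenitors, 3 were higher and 1 lower (23.1% and 7.69%, background 8.41% and 12.4%). Calls in this list were fewer when either DTPA replicate was left out. Spi1, which encodes the myeloid and lymphoid factor PU.1, stood at 19.9 and 19.1 TPM with DTPA and 11.0, 10.8 and 9.88 TPM with siZIP10 (0.83, SE 0.064, adjusted p = 1.6e-05), with siControl between (13.1 ± 0.875). Gata2 was higher by 0.25, not without DTPA replicate 1 (adjusted p = 0.0519), and Kit by 0.33, not without DTPA replicate 1 (adjusted p = 0.0689) or 2 (adjusted p = 0.0598).

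Genes of the red cell membrane and its skeleton included 5 higher and 9 lower of 29 (17.2% and 31.0%, background 8.41% and 12.4%). Kel, the Kell blood group glycoprotein, stood at 34.0 and 33.1 TPM with DTPA and 15.4, 16.0 and 16.1 TPM with siZIP10 (1.04, SE 0.071, adjusted p = 7.91e-06). Rhd, an Rh blood group protein, stood at 4.34 and 4.36 TPM with DTPA and 9.61, 9.97 and 8.44 TPM with siZIP10 (−0.95, SE 0.091, adjusted p = 7.02e-05), both under siControl (15.7 ± 1.07). Dmtn, the actin-bundling protein dematin, stood at 23.3 and 23.4 TPM with DTPA and 46.0, 43.5 and 47.0 TPM with siZIP10 (−0.93, SE 0.063, adjusted p = 7.91e-06), and siZIP10 was close to siControl (48.0 ± 2.06). Tmod1, which caps actin filaments of the membrane skeleton, differed by −0.67 and Slc4a1, the anion exchanger band 3, by −0.38 (241 and 226 TPM with DTPA and 318, 296 and 299.9 TPM with siZIP10). Slc4a1 was lower than siControl (445 ± 5.76) in both. Members thus moved in either direction, and neither group was the lower one throughout.

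Of 20 heme synthesis genes 7 were higher (background 8.41%) and 3 lower, the lower share being near the background of 12.4%. Uros, uroporphyrinogen III synthase, stood at 112 and 109 TPM with DTPA and 71.7, 76.2 and 73.8 TPM with siZIP10 (0.57, SE 0.040, adjusted p = 9.11e-06). Slc25a39, which brings glutathione into mitochondria, stood at 239 and 238 TPM with DTPA and 332, 327 and 316 TPM with siZIP10 (−0.45, SE 0.035, adjusted p = 1.88e-05), with siZIP10 at the siControl level (331 ± 12.7). Cpox was lower with DTPA (−0.27, adjusted p = 0.000416). Without DTPA replicate 1 the higher calls were 3, and without replicate 2 they were 4. Among 17 genes of iron uptake and storage, 2 were higher and 4 lower (11.8% and 23.5%, background 8.41% and 12.4%). The lower calls were fewer when either DTPA replicate was left out. Ftl1, the ferritin light chain, was lower with DTPA, with 29376 and 28978 TPM with DTPA and 34575, 34588 and 33878 TPM with siZIP10 (−0.23, adjusted p = 0.000657), and Flvcr1, a heme exporter and choline transporter, higher (0.38, adjusted p = 0.000497). Epor, the erythropoietin receptor, stood at 128 and 118 TPM with DTPA and 154, 149 and 151 TPM with siZIP10 (−0.30, SE 0.046, adjusted p = 0.00119).

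Genes of cell division stood below siControl in both groups and were somewhat less low with DTPA. All 50 mitosis genes were called lower than siControl with DTPA (18.8% of all genes were) and all 50 with siZIP10 (17.5% of all genes), comparisons that share the siControl libraries. No member was called higher than siControl, where 9.98% of all genes were higher with DTPA and 13.1% with siZIP10. Against siControl the median member fell by 1.01 with DTPA and by 1.23 with siZIP10 on the log2 scale. Set against each other, 19 of 50 were called higher with DTPA (38.0%, background 8.41%) and none lower (background 12.4%), with a median difference of 0.18. Plk1, a kinase of mitotic entry and exit, stood at 28.6 and 28.0 TPM with DTPA and 19.4, 16.1 and 19.8 TPM with siZIP10 (0.60, SE 0.10, adjusted p = 0.00283), with siControl at 57.1 ± 3.71. Cdc25b, the phosphatase that activates the mitotic cyclin kinase, stood at 54.2 and 46.6 TPM with DTPA and 37.6, 36.0 and 35.3 TPM with siZIP10 (0.46, SE 0.066, adjusted p = 0.000856). Ccnb2, cyclin B2, stood at 46.3 and 46.2 TPM with DTPA and 33.0, 27.5 and 30.3 TPM with siZIP10 (0.60, SE 0.17, adjusted p = 0.0291), but its call was lost without DTPA replicate 1 or 2 (adjusted p = 0.124 each) and without siZIP10 replicate 2 (adjusted p = 0.0807) or 3 (adjusted p = 0.0651). Mki67, the Ki-67 protein gene, was not called (82.5 and 81.8 TPM with DTPA and 75.6, 75.4 and 79.0 TPM with siZIP10; 0.098, adjusted p = 0.189), nor was Ccnb1, cyclin B1 (103 and 99.1 TPM with DTPA and 101, 101 and 102 TPM with siZIP10; −0.002, adjusted p = 0.99). The number of calls depended on the fit: 28 with voom on recovered reads and fewer than 19 when either DTPA replicate was left out. The small gap itself was present in each DTPA library. Relative to the siControl mean, the median member stood at −1.001 and −1.019 with DTPA and at −1.237, −1.211 and −1.212 with siZIP10.

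Many mitosis genes carry a CHR element near their start, bound by the DREAM and B-MYB complexes. In the RefSeq windows, TTTGAA or TTCGAA (either strand) occurs in 38 of 45 windows of mitosis genes (84.4%) and in 19.2% of all windows, and CCAAT in 84.4% and 37.4%. Cdc20, the activator of the anaphase-promoting complex, is shown as the example with its element just before the start, in capitals.

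Cdc20, chr4:118437344-118437593, minus strand: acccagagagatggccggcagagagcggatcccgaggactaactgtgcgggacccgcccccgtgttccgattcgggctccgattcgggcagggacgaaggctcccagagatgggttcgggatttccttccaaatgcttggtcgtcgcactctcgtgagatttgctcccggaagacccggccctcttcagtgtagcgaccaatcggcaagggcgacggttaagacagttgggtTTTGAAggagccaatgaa

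Cdc20 itself stood at 68.0 and 66.7 TPM with DTPA and 50.5, 50.2 and 49.7 TPM with siZIP10 (0.42, SE 0.11, adjusted p = 0.0197), with siControl at 132 ± 2.14. Its call was lost without DTPA replicate 1 (adjusted p = 0.104) or 2 (adjusted p = 0.0886) and without siZIP10 replicate 3 (adjusted p = 0.051).

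Of 40 DNA replication genes, 8 were higher with DTPA (20%, background 8.41%) and none lower (background 12.4%), with a median of 0.10. Cdc6, which loads the replicative helicase, stood at 44.2 and 42.5 TPM with DTPA and 30.9, 28.8 and 28.8 TPM with siZIP10 (0.54, SE 0.052, adjusted p = 6.78e-05), both under siControl (64.3 ± 2.35). When either DTPA replicate was left out, the share of members called higher was close to or below that of all genes in the same fit. Relative to the siControl mean, the median member stood at −0.547 and −0.613 with DTPA and at −0.671, −0.78 and −0.692 with siZIP10. Cell cycle genes of G1 were mixed, with 3 of 22 higher and 5 lower (13.6% and 22.7%, background 8.41% and 12.4%). With either DTPA replicate left out, fewer were called lower. Ccnd2, cyclin D2, stood at 35.8 and 33.0 TPM with DTPA and 53.6, 53.2 and 56.0 TPM with siZIP10 (−0.64, SE 0.043, adjusted p = 7.24e-06), on either side of siControl (45.4 ± 0.988). Cdkn2c, the kinase inhibitor p18, stood at 232 and 231 TPM with DTPA and 294, 299 and 298 TPM with siZIP10 (−0.36, SE 0.029, adjusted p = 1.97e-05). E2f1 was higher by 0.42, not without DTPA replicate 1 (adjusted p = 0.104). Among p53 targets, 1 of 21 was higher (4.76%) and 2 lower (9.52%), near the background of 8.41% and 12.4% (0 and 1 without DTPA replicate 1, 0 and 0 without replicate 2), and Bbc3, Cdkn1a and Mdm2 differed by −0.024, 0.040 and −0.038 (adjusted p = 0.806, 0.576 and 0.494).

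**Figure D4:**
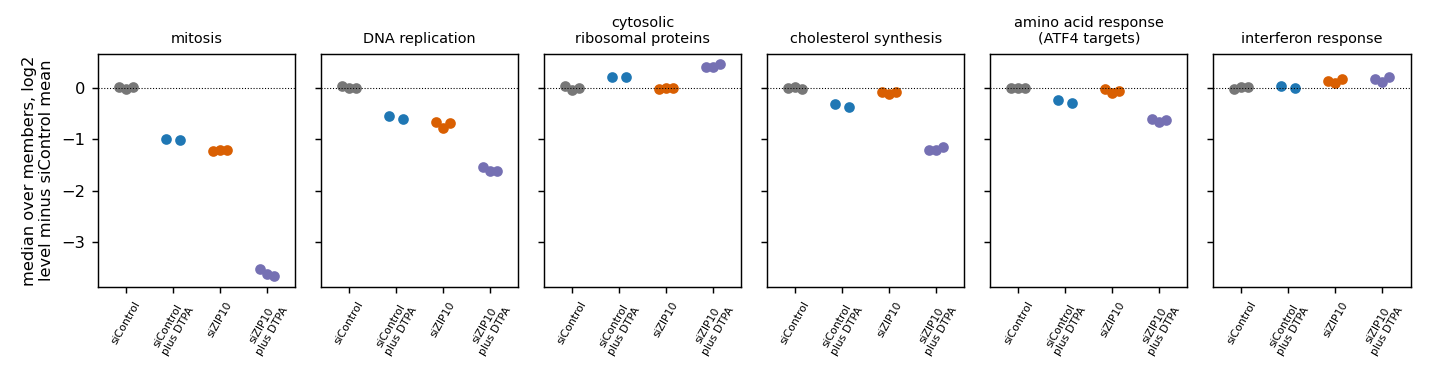
Median over the tested members of 6 gene lists, as log2(TPM + 1) minus the siControl mean (vertical axis), in each library of the 4 groups. Mitosis genes lie lower in the siZIP10 libraries than in the DTPA libraries; ribosomal protein genes are raised in the DTPA libraries, and cholesterol synthesis and ATF4 target genes are lower there.

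Ribosomal protein genes were higher with DTPA almost throughout. Of 84 tested, 68 were called higher and none lower (background 8.41% and 12.4%), with a median difference of 0.23. They made up 9.05% and 9.11% of TPM with DTPA, 7.74% to 7.89% with siZIP10 and 7.69% to 8% in siControl. Rpl12 stood at 283 and 282 TPM with DTPA and 196, 198 and 203 TPM with siZIP10 (0.50, SE 0.030, adjusted p = 3.89e-06). Rps6 stood at 1870.2 and 1897 TPM with DTPA and 1441, 1420.4 and 1439.7 TPM with siZIP10 (0.39, SE 0.028, adjusted p = 1.09e-05). In siControl the levels were 217 ± 6.88 TPM for Rpl12 and 1439 ± 33.5 TPM for Rps6. Of 30 factors that build ribosomes, 1 was higher (3.33%, background 8.41%) and 4 lower, near the background (13.3% and 12.4%; 3 lower without DTPA replicate 1 and 2 without replicate 2), and Npm1, nucleophosmin, was lower with DTPA (−0.22, adjusted p = 0.00314). Among 13 protein-coding genes of the mitochondrial genome, 4 were called higher (30.8%, background 8.41%) and none lower (background 12.4%). All 13 differences were positive. mt-Nd1 stood at 9126 and 9516 TPM with DTPA and 6996, 7621 and 8033 TPM with siZIP10 (0.31, adjusted p = 0.00348). Without DTPA replicate 1 or 2 the list had 1 and 2 calls.

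Nuclear genes of the respiratory chain included 13 higher and 8 lower of 79 (16.5% and 10.1%, background 8.41% and 12.4%). Cox7a1, a subunit of cytochrome c oxidase, stood at 446 and 465 TPM with DTPA and 262, 265 and 254 TPM with siZIP10 (0.81, SE 0.037, adjusted p = 7e-07). Ndufa4, a protein bound to the same enzyme, stood at 310.3 and 319.7 TPM with DTPA and 182, 194 and 188 TPM with siZIP10 (0.74, SE 0.038, adjusted p = 1.31e-06). The siControl levels placed them apart: for Cox7a1 siControl lay between (318 ± 12.0), while for Ndufa4 both groups were lower than siControl (365 ± 12.1) and siZIP10 the lowest. Leaving out DTPA replicate 1 gave 5 higher and 2 lower, and replicate 2 gave 3 and 4.

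Cholesterol synthesis genes were lower with DTPA. Of 21 tested, 17 were called lower and none higher (background 12.4% and 8.41%), all 21 differences were negative, and the median was −0.20. Hmgcs1, which makes the HMG-CoA of the pathway, stood at 195 and 189 TPM with DTPA and 279, 288 and 288 TPM with siZIP10 (−0.57, SE 0.029, adjusted p = 1.39e-06), with siControl at 267 ± 3.73. Fdps, farnesyl diphosphate synthase, stood at 9.23 and 8.11 TPM with DTPA and 12.8, 12.9 and 13.5 TPM with siZIP10 (−0.54, SE 0.095, adjusted p = 0.00273). Mvd, which makes the isopentenyl unit, differed by −0.41 and Fdft1, squalene synthase, by −0.33. Against siControl, whose libraries both comparisons share, all 21 were called lower with DTPA (18.8% of all genes were), and with siZIP10 9 were lower (17.5% of all genes) and 1 higher (13.1%). Calls were 14 without DTPA replicate 1 and 10 without replicate 2.

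Targets of ATF4, the factor of the amino acid response, were also lower with DTPA: 13 of 20 were called lower (65.0%, background 12.4%) and none higher (background 8.41%), with a median of −0.22. Nupr1, a stress-induced chromatin protein, stood at 14.3 and 15.4 TPM with DTPA and 25.8, 24.2 and 25.3 TPM with siZIP10 (−0.72, SE 0.11, adjusted p = 0.00107), with siControl at 17.1 ± 2.07. Pck2, mitochondrial PEP carboxykinase, stood at 8.66 and 9.03 TPM with DTPA and 13.6, 11.7 and 12.6 TPM with siZIP10 (−0.47, SE 0.068, adjusted p = 0.000984). Slc7a5, the large neutral amino acid transporter LAT1, stood at 748 and 692 TPM with DTPA and 984, 954 and 982 TPM with siZIP10 (−0.44, SE 0.038, adjusted p = 3.49e-05), and Slc7a1, a cationic amino acid transporter, differed by −0.40. Atf4 itself was lower, at 97.4 and 96.3 TPM with DTPA and 108, 108 and 107 TPM with siZIP10 (−0.15, adjusted p = 0.00347). For Slc7a5 the groups lay on either side of siControl (814 ± 26.4). Without DTPA replicate 2 there were 8 calls.

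The promoters of Hmgcs1 and Asns, asparagine synthetase, are shown because each list is known for 1 element, the sterol response element (searched as TCACNCCAC) and the C/EBP-ATF element (TGATGNAA), both strands; capitals mark the match.

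Hmgcs1, chr13:119690101-119690350, plus strand: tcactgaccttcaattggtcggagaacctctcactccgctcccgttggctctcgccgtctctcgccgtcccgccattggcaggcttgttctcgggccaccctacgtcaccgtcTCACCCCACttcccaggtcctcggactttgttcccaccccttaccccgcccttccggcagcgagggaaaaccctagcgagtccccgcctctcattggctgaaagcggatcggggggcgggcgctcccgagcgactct

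Asns, chr6:7693210-7693459, minus strand: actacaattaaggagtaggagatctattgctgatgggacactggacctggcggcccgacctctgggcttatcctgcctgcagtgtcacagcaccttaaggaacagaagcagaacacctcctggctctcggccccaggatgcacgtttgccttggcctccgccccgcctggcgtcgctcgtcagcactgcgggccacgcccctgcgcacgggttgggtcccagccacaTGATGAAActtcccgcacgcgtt

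The sterol letters occur in 1 of 18 windows of the cholesterol list (5.56%), that of Hmgcs1, and in 1.24% of all windows. Only this spelling was searched, so a window without it is not shown to lack the element. CCAAT occurs in 83.3% of the list's windows. The C/EBP-ATF letters occur in 6 of 21 windows of ATF4 targets (28.6%) and in 3.97% of all windows. Both RNAs were lower with DTPA, Hmgcs1 by −0.57 and Asns by −0.28.

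**Figure D5:**
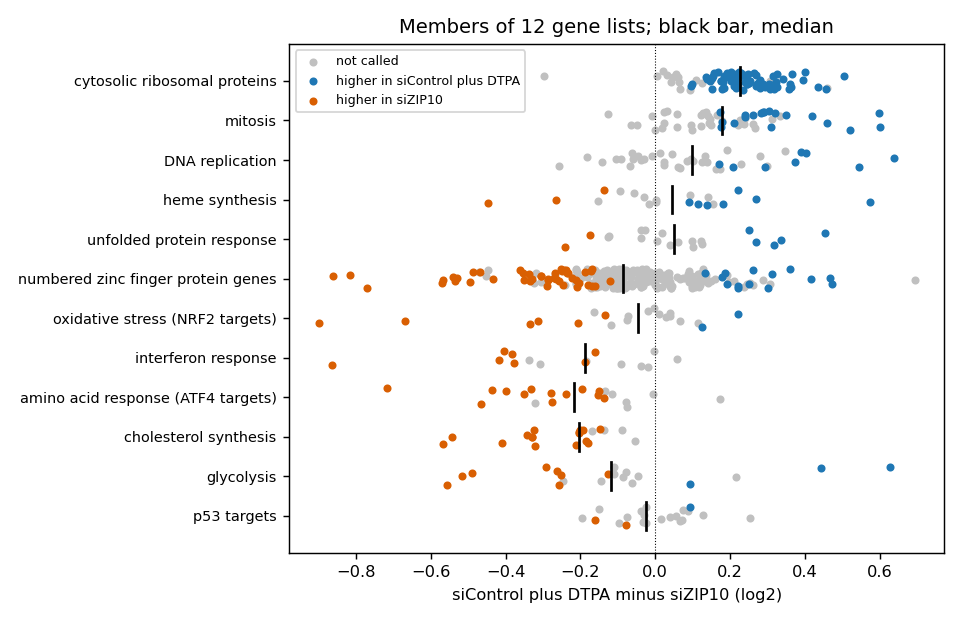
Difference between siControl plus DTPA and siZIP10 (log2, horizontal axis) for each tested member of 12 gene lists (vertical axis); colours mark called members and black bars the medians. The median of ribosomal protein genes lies right of 0 and that of ATF4 targets left of it, all cholesterol synthesis genes lie left of it, and p53 targets are centred near 0.

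Sugar use and stress genes were mixed. Of 20 glycolysis genes 3 were higher (15.0%, background 8.41%) and 8 lower (40.0%, background 12.4%). Pfkfb4, a regulator of phosphofructokinase, stood at 175 and 164 TPM with DTPA and 113, 107 and 108 TPM with siZIP10 (0.63, SE 0.042, adjusted p = 7.38e-06), and Pklr, the pyruvate kinase of liver and red cells, was higher by 0.44. Slc2a3, the glucose transporter GLUT3, stood at 19.0 and 20.1 TPM with DTPA and 29.4, 28.3 and 30.0 TPM with siZIP10 (−0.56, SE 0.063, adjusted p = 0.000204), and Slc16a1, a lactate transporter, was lower (−0.52, adjusted p = 8.76e-05). Of 20 NRF2 targets 2 were higher and 6 lower (10.0% and 30.0%, background 8.41% and 12.4%). Without DTPA replicate 2 there were fewer of each. Nqo1, a quinone reductase, stood at 38.6 and 40.6 TPM with DTPA and 72.8, 77.9 and 73.3 TPM with siZIP10 (−0.90, SE 0.078, adjusted p = 3.49e-05), with siZIP10 at the siControl level (75.9 ± 3.24). Hmox1, which breaks down heme, stood at 148 and 150.0 TPM with DTPA and 236, 248 and 229.8 TPM with siZIP10 (−0.67, SE 0.042, adjusted p = 4.54e-06), with DTPA near siControl (157 ± 3.97). The same direction thus came from a low DTPA level in Nqo1 and a high siZIP10 level in Hmox1.

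The unfolded protein response list had 5 of 20 higher and 2 lower (25.0% and 10.0%, background 8.41% and 12.4%). Each count was smaller with either DTPA replicate left out. Manf, a protein secreted on stress of the endoplasmic reticulum, stood at 34.2 and 33.6 TPM with DTPA and 23.9, 23.9 and 25.7 TPM with siZIP10 (0.45, SE 0.079, adjusted p = 0.00272), and Hspa5, the chaperone BiP, at 149.5 and 142 TPM with DTPA and 122, 119.8 and 121 TPM with siZIP10 (0.27, SE 0.041, adjusted p = 0.00133). In both, siZIP10 was lower than siControl (35.4 ± 4.22 and 155 ± 4.37). Of 15 interferon response genes 7 were lower with DTPA (46.7%, background 12.4%) and none higher (background 8.41%), with a median of −0.19. Against siControl, whose libraries both comparisons share, 7 were higher with siZIP10 (13.1% of all genes) and none lower (17.5%), median 0.16. With DTPA 1 was higher than siControl (9.98% of all genes) and 2 lower (18.8%), median 0.04. Parp14 stood at 37.6 and 34.7 TPM with DTPA and 48.6, 46.7 and 50.4 TPM with siZIP10 (−0.42, SE 0.053, adjusted p = 0.000404), with DTPA at the siControl level (34.6 ± 1.62), and Irf9, part of the factor that interferon activates, at 29.8 and 31.5 TPM with DTPA and 42.5, 37.7 and 40.6 TPM with siZIP10 (−0.38, SE 0.061, adjusted p = 0.00161). Without DTPA replicate 2 there were 3 calls. Prdx2, the abundant peroxiredoxin of red cells, stood at 2312 and 2345 TPM with DTPA and 2797, 2749 and 2695 TPM with siZIP10 (−0.24, SE 0.024, adjusted p = 9.53e-05). Of 31 genes of autophagy and mitophagy 4 were higher and 7 lower (12.9% and 22.6%, background 8.41% and 12.4%). Bnip3, a mitophagy receptor, stood at 53.4 and 54.1 TPM with DTPA and 75.6, 78.3 and 73.9 TPM with siZIP10 (−0.49, SE 0.060, adjusted p = 0.000321), and the list had 0 higher and 7 lower calls without DTPA replicate 1 and 3 and 4 without replicate 2.

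Genes named as numbered zinc finger proteins (Zfp) were called lower more often than higher: 45 of 253 were lower (17.8%, background 12.4%) and 14 higher (5.53%, background 8.41%), with a median of −0.09. Zfp715 stood at 21.3 and 20.9 TPM with DTPA and 37.4, 38.1 and 42.3 TPM with siZIP10 (−0.86, SE 0.065, adjusted p = 1.5e-05), with siControl at 35.6 ± 2.11. Zfp629 stood at 4.91 and 4.78 TPM with DTPA and 8.79, 8.71 and 10.4 TPM with siZIP10 (−0.82, SE 0.093, adjusted p = 0.000204) and Zfp719 at 2.48 and 3.01 TPM with DTPA and 5.75, 5.44 and 4.97 TPM with siZIP10 (−0.77, adjusted p = 0.00105). With either DTPA replicate left out, the share of members called lower was close to that of all genes. The excess of lower calls thus rests on having both replicates. Cnbp (ENSMUSG00000030057.15, chr6:87842615-87851106, minus strand), a zinc finger protein that binds nucleic acids and was chosen after its values were seen, stood at 154 and 157 TPM with DTPA and 296, 284 and 297 TPM with siZIP10 (−0.91, SE 0.031, adjusted p = 7.36e-08). Its siControl level was 292 ± 4.87 and that of siZIP10 plus DTPA 148, so that it was high in both groups without DTPA and low in both with it.

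Other protein-coding genes had strong differences outside these lists. Nxpe2 (ENSMUSG00000032028.15, chr9:48318006-48353454, minus strand) stood at 46.1 and 42.6 TPM with DTPA and 12.2, 11.2 and 10.5 TPM with siZIP10 (1.88, SE 0.065, adjusted p = 7.36e-08). Slc43a2, which carries neutral amino acids, stood at 45.7 and 42.0 TPM with DTPA and 17.2, 15.7 and 17.2 TPM with siZIP10 (1.34, SE 0.059, adjusted p = 5.81e-07), with siControl at 18.7 ± 0.727. Acp5, the tartrate-resistant acid phosphatase, stood at 109 and 106 TPM with DTPA and 48.0, 45.4 and 54.4 TPM with siZIP10 (1.11, SE 0.073, adjusted p = 6.78e-06), with siControl at 87.8 ± 5.17. Lower with DTPA was Creb3l3 (ENSMUSG00000035041.8, chr10:81084324-81098874, minus strand), a transcription factor held in the endoplasmic reticulum, at 10.7 and 9.40 TPM with DTPA and 33.2, 33.3 and 31.1 TPM with siZIP10 (−1.60, SE 0.13, adjusted p = 2.65e-05) and 23.4 ± 0.407 in siControl. Tmco4 stood at 4.64 and 4.34 TPM with DTPA and 15.5, 15.0 and 15.2 TPM with siZIP10 (−1.57, SE 0.091, adjusted p = 3.22e-06), and Fgfbp3, a binding protein of fibroblast growth factors, at 12.9 and 9.55 TPM with DTPA and 31.4, 32.7 and 29.8 TPM with siZIP10 (−1.42, SE 0.10, adjusted p = 1.01e-05). Rragd, a Rag GTPase that signals amino acids to mTORC1, stood at 99.1 and 96.3 TPM with DTPA and 212, 198 and 208 TPM with siZIP10 (−1.07, SE 0.046, adjusted p = 4.94e-07), with siControl at 160.1 ± 3.78. Nt5dc2 and Tspo2 differed through siZIP10: Nt5dc2 stood at 409 and 405 TPM with DTPA and 231, 214 and 221 TPM with siZIP10 (0.87, adjusted p = 7e-07) and 366 ± 11.4 in siControl. Tspo2, a membrane protein of maturing red cells, stood at 11.0 and 11.6 TPM with DTPA and 21.8, 21.2 and 20.9 TPM with siZIP10 (−0.86, adjusted p = 9.66e-05) and 10.3 ± 1.12 in siControl. Slc43a2, Acp5, Rragd, Nt5dc2 and Tspo2 were chosen after their values were seen. Part of the 15 largest differences in each direction were short or unnamed RNA genes with few reads, which were counted but are not described.

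Over all called genes, the siControl mean lay between the groups for 457 of the 957 higher in DTPA (47.8%) and for 791 of the 1414 lower (55.9%). Of the higher genes, siControl stood below both groups for 286 and above both for 214; of the lower genes, it stood below both for 226 and above both for 397. The siControl mean was nearer to siZIP10 for 55.5% of the higher and 56.6% of the lower genes. These shares were not computed over all genes tested, and the DTPA mean rests on 2 libraries against 3 for siZIP10. They are therefore not read as a trait of the called genes.

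Erythroid markers were high in all 5 libraries, with a summed level of 49708 and 55723 TPM with DTPA and 46936 to 50600 TPM with siZIP10, and all 10 were above 0. Of 9 megakaryocyte markers 4 were at 0 in all 5 (among them Gp1bb, Ppbp and Vwf), and the sum was 26.7 and 25.7 TPM with DTPA and 17.2 to 18.7 TPM with siZIP10. Of the 4 tested, 3 were called higher with DTPA: Itgb3, integrin β3 (10.3 and 11.1 TPM with DTPA and 7.37, 7.41 and 7.49 TPM with siZIP10; 0.48, SE 0.061, adjusted p = 0.000435), Gp9, platelet glycoprotein IX (3.70 and 2.98 TPM with DTPA and 0.887, 0.668 and 0.643 TPM with siZIP10; 1.32, SE 0.24, adjusted p = 0.00348), and Gp1ba (0.25, adjusted p = 0.0423), whose call was lost without DTPA replicate 1 (adjusted p = 0.161) or 2 (adjusted p = 0.153), without siZIP10 replicate 2 (adjusted p = 0.112) or 3 (adjusted p = 0.0944), and in several other fits. Mast cell and basophil markers summed to 1.69 to 2.49 TPM (6 of 8 at 0 in all 5, among them Cpa3 and Fcer1a), myeloid markers to 2.98 to 5.16 TPM (6 of 10 at 0, among them Mpo and Elane) and lymphoid markers to 0.61 to 1.61 TPM (7 of 10 at 0), and their 3 tested genes were not called. The 3 of 4 tested megakaryocyte markers called higher (75.0%) stand beside 8.41% of all genes. Whether cells of the megakaryocyte line add to any difference was not tested.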

How the data were processed

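The deposited files hold TPM, made by the authors from poly(A) libraries of a stranded kit. Tools named in the submitters' processing notes are HISAT2 2.1.0, Trimmomatic 0.33, featureCounts, edgeR and FastQC, with the mm10 build. Not given in the sources used here were the gene annotation and how strand was counted; overlapping genes and near-identical copies are therefore uncertain. Of 55367 names, 53170 matched GENCODE mouse release 21, which gave positions and exon lengths. TPM times exon length fell on whole reads for 99.0% to 99.2% of values up to 20 reads (within 0.1 read).

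Genes whose mean over 11 libraries reached 1 TPM were fitted as log2(TPM + 1) with limma 3.58.1 in R 4.3.3 (trend, 4 group means, no block, 7 residual and 3.21 prior degrees of freedom). Each p is two-sided, Benjamini-Hochberg adjusted over 11379 genes, threshold 0.05. SDs and SEs are over libraries labelled biological replicates of 1 cell line. Promoters are from RefSeq, GRCm38.p6. Tables and figures were made in pandas 2.3.3, numpy 2.4.6 and matplotlib 3.10.9 under Python 3.11.15.

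The comparison and the 41 gene lists (1084 genes tested) were chosen with earlier results of these data known. Named genes are Slc39a10, Mt1, Mt2 and Slc30a1, the 15 largest differences in each direction among called genes whose groups do not overlap, up to 5 called members of each list with the largest differences, and members given for contrast; unnamed and short RNA genes were counted only, and the text gives a part of the others. Further protein-coding genes, most with large differences, were named after their values were seen. They are among the named genes counted below. Gene names that occur more than once were kept out of the lists.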

Additional observations from a re-analysis of the deposited data

How the results depend on the processing

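With the repeated library kept as labelled, 0 genes were called by limma, 0 higher and 0 lower, 0 list members and 0 with siControl between the groups (1728 at an unadjusted p under 0.05, against 3679). Leaving out 1 library gave 1260 to 2378 called genes, 434 to 955 higher and 690 to 1423 lower, 217 to 375 list members (375 with all 11 libraries) and 744 to 1216 genes with siControl between (1248). The low ends came from leaving out DTPA replicate 1 (434 higher) or 2 (1260 called, 690 lower, 217 list members, 744 between). The cause was not tested beyond there being 1 DTPA library left.

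With the replicate block, 2108 genes were called, 883 higher and 1225 lower. Same-numbered libraries of different groups had deviations that correlated at −0.06 to 0.061 over 15 pairs, so the numbers were not taken to pair the samples. The other settings gave 1663 (only the 5 libraries compared) to 2995 calls (voom on recovered reads). Of 215 named genes that were called, 135 kept the call in each alternative that tested them, leaving aside the library as labelled. None changed direction. At a mean of at least 5 TPM, 189 kept the call and the rest were not tested. The 2 DTPA libraries limit the precision, and genes of few reads are the least certain.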
